A study of Homo sapiens with 60 samples.

Results

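The libraries described here are the 6 that were made at day 12 from SH-SY5Y cells kept in 0.16 or 1.26 µM lead (Pb), set against the 3 made on the same day from cells without Pb. They were chosen by their titles in the submitters' labels and make up 9 of the 60 libraries of the series, which covers 5 days and 4 Pb doses (0, 0.16, 1.26 and 10 µM). SH-SY5Y is a human neuroblastoma line that can be driven towards a neuron-like state. Per the labels, all groups had the genotype WT and came from cells of passage 39 grown in 15 cm dishes with 1 dish per replicate. Control dishes at day 12 received no Pb, and the other dishes received 0.16 µM or 1.26 µM from day 5 of differentiation, with the metal renewed whenever the medium was changed. RNA from whole dishes was sequenced with PlexWell, a plate method that barcodes the cDNA of each well by tagmentation. The 3 groups are cultures of a single line at a single passage. Each p-value rests on the spread between replicate dishes, pooled over all 60 libraries in 20 groups, and not on that between donors or lines.

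Pb is a toxic metal that can take the place of calcium and zinc in proteins, and the developing nervous system is held to be sensitive to it. SH-SY5Y cultures are known to hold neuroblast-like cells beside flatter, substrate-adherent cells that carry mesenchymal genes such as collagens and vimentin. The transcription factor p53, which is activated by DNA damage and other stress, induces a set of target genes that slow the cell cycle or favour cell death, among them CDKN1A.

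The 9 libraries held 25 to 38.5 M reads assigned to genes (M stands for 1e+06), where the range over all 60 was 16.6 to 50.5 M, and 3 reads corresponded to 0.078 to 0.12 counts per 1e+06 assigned reads (CPM) in a single library. In a principal component analysis of the 9 alone, component 1 (32.4% of the variance) had scores of both signs within each of the 3 groups, so it did not separate the doses. Component 2 (13.6%) had scores of -10.2 to -1.93 in the controls, -2.88 to 1.17 with 0.16 µM and -0.221 to 14.8 with 1.26 µM, without overlap between the controls and 1.26 µM. Of the 36 pairs of these libraries, none had identical values. The 12 genes that define sympathoadrenal neuroblasts were all measured and none passed the test, and their summed level was 12420 to 12840 CPM at 0 µM, 12350 to 12710 CPM at 0.16 µM and 12140 to 13190 CPM at 1.26 µM. The transcription factor PHOX2A (1438 CPM at 0 µM) and the noradrenaline-forming enzyme DBH (7453 CPM) were abundant, whereas MYCN stood at 0.762 CPM.

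With the low doses pooled, a short list of genes was lower than in the controls, with the largest differences in COL3A1, a collagen gene, and TWIST2, a transcription factor gene. Of 15263 genes tested, 12 passed an adjusted p of 0.05 in limma (0.0786%), 11 of them lower (0.0721%) and 1 higher (0.00655%). The genes lower with Pb were COL3A1, TWIST2, VIM, TSC22D1, FAP, TGM2, IFITM2, BACE2, IGFBP5, S100A11 and GSC, and the gene higher with Pb was CDKN1A. At an unadjusted p below 0.05 there were 862 genes (5.65%), and the median difference of all genes was 0.01 on the log2(CPM + 1) scale, on which all differences here are given. The scale understates the change of genes near or below 1 CPM. The count was 4 without control replicate 2, all of them lower, and 27 without the filter on low values. A fit of only the 9 libraries called 8 genes, 7 of them among the 12.

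**Figure D1:**
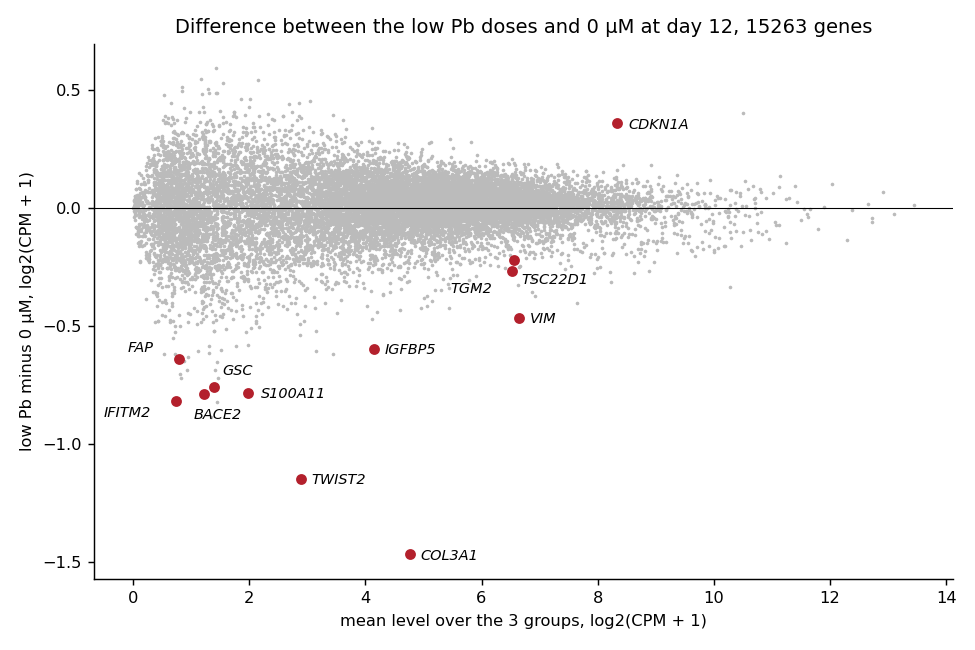
Difference between the pooled low Pb doses and 0 µM at day 12 on the log2(CPM + 1) scale (vertical) against the mean level over the 3 groups (horizontal) for the 15263 genes tested, 1 point per gene. The 12 genes past an adjusted p of 0.05 are red, and 11 of them lie below 0, with COL3A1 the lowest at -1.47.

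COL3A1 (chromosome 2, 188974373 to 189012746 in GRCh38.p14) encodes the chain of type III collagen, a fibre-forming collagen of soft tissues. It stood at 46.05, 45.8 and 46.7 CPM in the control libraries, at 18.5, 18.2 and 15.7 CPM with 0.16 µM and at 14.7, 15.1 and 14.4 CPM with 1.26 µM. All 6 low-dose libraries lay far below all 3 controls, at 37.8% of the control mean with 0.16 µM and 31.9% with 1.26 µM. The combined difference was -1.47 ± 0.20 (SE, adjusted p = 2.05e-05), made up of -1.36 ± 0.23 at 0.16 µM (adjusted p = 0.00256) and -1.58 ± 0.23 at 1.26 µM (adjusted p = 5.88e-05). The group at 10 µM on the same day, which is compared with the same controls, had a mean of 2.20 ± 0.207 CPM (SD, n = 3).

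TWIST2 (chromosome 2, 238848085 to 238910534) encodes a basic helix-loop-helix transcription factor of mesenchymal cells. Its level was 9.31, 11.78 and 11 CPM in the controls, 4.09, 4.80 and 4.42 CPM with 0.16 µM and 4.03, 4.86 and 3.51 CPM with 1.26 µM. The low-dose libraries of both doses lay in the same range, below every control. The combined difference was -1.15 ± 0.17 (adjusted p = 0.000121), with -1.10 ± 0.19 at 0.16 µM (adjusted p = 0.00428) and -1.19 ± 0.19 at 1.26 µM (adjusted p = 0.000864). The call was lost with a pseudocount of 0.25 (adjusted p = 0.112) and in edgeR's quasi-likelihood test (adjusted p = 0.0883). Both single-dose calls were lost in these analyses too (adjusted p = 0.183 to 0.537). The call at 0.16 µM was also lost without control replicate 2 (adjusted p = 0.0639) or replicate 1 of 0.16 µM (adjusted p = 0.0818).

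VIM (chromosome 10, 17228241 to 17237593) encodes vimentin, the intermediate filament protein of mesenchymal cells and of many immature neurons. It stood at 123.2, 121.0 and 122.0 CPM in the controls, at 92.0, 93.9 and 94.5 CPM with 0.16 µM and at 85.4, 80.9 and 83.0 CPM with 1.26 µM. The 3 groups did not overlap, and the libraries at 1.26 µM were the lowest. The combined difference was -0.47 ± 0.081 (adjusted p = 0.00307), with -0.38 ± 0.093 at 0.16 µM (adjusted p = 0.138) and -0.55 ± 0.093 at 1.26 µM (adjusted p = 0.00149). The difference between the doses, -0.17 ± 0.093, did not pass the test (adjusted p = 0.999). COL3A1 and VIM kept their combined call in all 8 alternative analyses and whichever of the 9 libraries was left out.

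**Figure D2:**
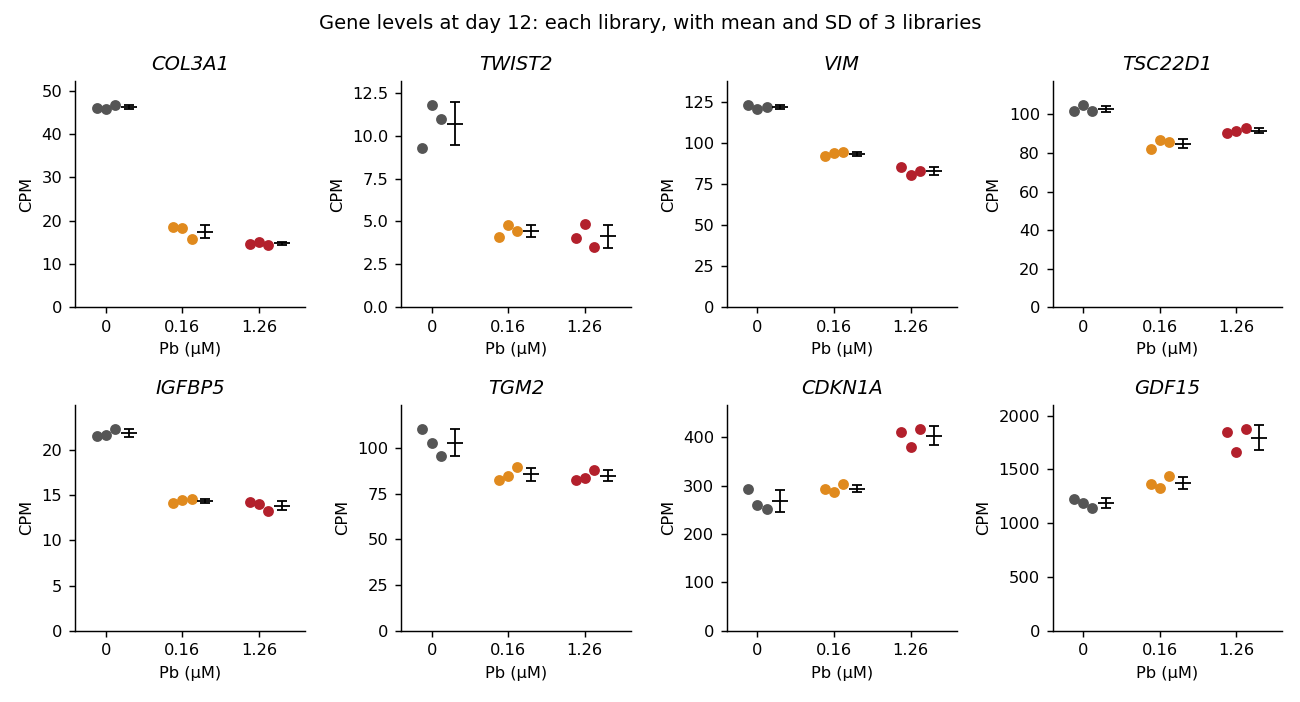
Level in CPM (vertical, from 0) of 8 genes in each of the 9 libraries at 0, 0.16 and 1.26 µM Pb (horizontal), with the mean and SD of 3 libraries beside the points. In the 6 genes from COL3A1 to TGM2 every low-dose library lies below every control, and in CDKN1A the libraries at 0.16 µM (286.8 to 302.3 CPM) overlap with the controls while those at 1.26 µM do not.

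FAP, a serine protease on the surface of activated fibroblasts, was near the lower end of what could be tested. It was covered by 35, 28 and 40 reads in the controls, by 13, 15 and 23 reads with 0.16 µM and by 17, 7 and 17 reads with 1.26 µM, or 1.27 ± 0.375, 0.468 ± 0.114 and 0.434 ± 0.228 CPM (SD, n = 3). All 6 low-dose libraries were below the 3 controls, and the combined difference was -0.64 ± 0.12 (adjusted p = 0.0106). FAP was no longer called with a pseudocount of 0.25 (adjusted p = 0.17), in the fit of only the 9 libraries (adjusted p = 0.264), in edgeR (adjusted p = 0.467), or without control replicate 1 or 3 (adjusted p = 0.086 and 0.289).

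In the lists of collagens and of mesenchymal markers, members other than COL3A1 and VIM mostly had differences of the same sign, and none passed the test. Of 14 genes for fibrillar and basement membrane collagens, 11 passed the filter on low values, and COL3A1 was the only member called. With the doses pooled, all 11 differences were below 0, where 43.9% of all genes tested were below 0. Only 7 of the 11 were below 0 at both doses. The list's summed level overlapped between the groups. It was 1023 to 1084 CPM in the controls, 968.5 to 1032 CPM with 0.16 µM and 959.9 to 1053 CPM with 1.26 µM. Without COL3A1 the median of the other 10 was -0.12, with 0.01 for all genes. COL1A1, a chain of type I collagen, averaged 10.5 CPM in the controls, 6.95 CPM with 0.16 µM and 6.15 CPM with 1.26 µM without overlap (-0.61 ± 0.17, adjusted p = 0.233). COL4A1, a chain of basement membrane collagen, differed by -0.38 ± 0.17 (adjusted p = 0.813), and COL5A1, which helps to set the width of collagen fibres, by -0.43 ± 0.20 (adjusted p = 0.836). The abundant COL6A1 and COL6A2, chains of the bead-like filaments around cells, differed by -0.01 ± 0.073 and -0.01 ± 0.051.

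Of 25 mesenchymal markers 22 were tested and VIM was the only one called, while 6 were lower and 1 was higher at an unadjusted p below 0.05. The corresponding shares of all genes were 2.54% lower and 3.11% higher, and the median of the 21 members other than VIM was -0.10. The summed level of the list was 1832 to 1953 CPM in the controls, 1702 to 1785 CPM with 0.16 µM and 1591 to 1722 CPM with 1.26 µM, so the control libraries lay above all 6 low-dose libraries. DCN, the matrix proteoglycan decorin, averaged 1.56, 0.637 and 0.529 CPM at the 3 doses in rising order (-0.69 ± 0.17, adjusted p = 0.131). TPM1, a tropomyosin of actin filaments, differed by -0.18 ± 0.067 (adjusted p = 0.636). ACTA2, the smooth muscle actin that marks contractile fibroblasts, went the other way, at 4.79, 5.37 and 8.47 CPM (0.45 ± 0.15, adjusted p = 0.544). In such bulk samples, fewer cells of a type and less RNA per cell cannot be told apart, and the part of a changed share of mesenchymal-type cells in the levels of COL3A1, TWIST2 and VIM was not tested.

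TSC22D1 (chromosome 13, 44432143 to 44577344) encodes a leucine zipper protein that is induced by TGF-beta. It stood at 101.9, 104.8 and 101.9 CPM in the controls, at 82.1, 86.6 and 85.7 CPM with 0.16 µM and at 90.4, 91.4 and 92.8 CPM with 1.26 µM. The libraries at 0.16 µM were the lowest, those at 1.26 µM lay between them and the controls, and no groups overlapped. The combined difference was -0.22 ± 0.040 (adjusted p = 0.00589), with -0.28 ± 0.047 at 0.16 µM (adjusted p = 0.00256) and -0.17 ± 0.047 at 1.26 µM (adjusted p = 0.21). The combined call was lost in the fit of only the 9 libraries (adjusted p = 0.103) and without control replicate 2 (adjusted p = 0.12). The call at 0.16 µM was lost in that fit too (adjusted p = 0.0912), and without control replicate 2 (adjusted p = 0.0516) or replicate 1 of 0.16 µM (adjusted p = 0.0818).

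TGM2 (chromosome 20, 38127385 to 38168475) encodes tissue transglutaminase, an enzyme that crosslinks matrix proteins and is known to be induced by retinoic acid. Its level was 110.4, 102.7 and 95.6 CPM in the controls, 82.7, 84.7 and 89.6 CPM with 0.16 µM and 82.5, 83.7 and 88.2 CPM with 1.26 µM. Both doses gave nearly the same values, and the highest low-dose library lay below the lowest control. With both doses pooled it differed by -0.27 ± 0.052 (adjusted p = 0.0113). It was no longer called in the fit of only the 9 libraries (adjusted p = 0.194) or without control replicate 1 (adjusted p = 0.262) or 2 (adjusted p = 0.12). Among the 17 genes tested of the retinoic acid and HOX list, TGM2 was the only one called, and the list's median was -0.03. CYP26A1, which degrades retinoic acid, averaged 708.7, 704.4 and 821.4 CPM at 0, 0.16 and 1.26 µM.

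IGFBP5 (chromosome 2, 216672105 to 216695549) encodes a secreted protein that binds insulin-like growth factors. It stood at 21.6, 21.7 and 22.3 CPM in the controls, at 14.2, 14.4 and 14.6 CPM with 0.16 µM and at 14.2, 14.02 and 13.3 CPM with 1.26 µM. The low-dose libraries of both doses formed a single narrow range below the controls. Over both doses the difference was -0.60 ± 0.12 (adjusted p = 0.0148). The call was kept in all 8 alternative analyses and was lost without control replicate 1, 2 or 3 (adjusted p = 0.0844, 0.139 and 0.17).

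The other 4 genes lower with Pb were expressed at a few CPM or less, and BACE2, S100A11 and GSC are named here after their values were seen. IFITM2, an interferon-inducible membrane protein, had 29, 41 and 42 reads in the controls, 8, 8 and 15 with 0.16 µM and 15, 9 and 13 with 1.26 µM. Its combined difference was -0.82 ± 0.16 (adjusted p = 0.0148), it was not called without control replicate 2 or 3 (adjusted p = 0.12 and 0.3), and its reads are uncertain because IFITM1 and IFITM3 are close copies. S100A11, a calcium-binding protein, had 4.21, 4.66 and 4.48 CPM in the controls, 1.91, 1.75 and 2.42 CPM with 0.16 µM and 2.52, 2.53 and 1.95 CPM with 1.26 µM. All 6 low-dose libraries of S100A11 were below the controls (-0.79 ± 0.17, adjusted p = 0.0343). Its call was kept without replicate 3 of 0.16 µM or replicate 2 of 1.26 µM and was lost without any of the other 7 libraries (adjusted p = 0.0501 to 0.261) and with a pseudocount of 0.25 (adjusted p = 0.071).

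BACE2, a membrane protease related to the beta-secretase BACE1, averaged 2.24 CPM in the controls, 0.942 CPM with 0.16 µM and 0.817 CPM with 1.26 µM (-0.79 ± 0.16, adjusted p = 0.0148). GSC, the homeobox factor goosecoid, averaged 2.61, 0.919 and 1.34 CPM in the same order (-0.76 ± 0.17, adjusted p = 0.0468). Neither gene overlapped between controls and low doses. BACE2 was not called without control replicate 2 (adjusted p = 0.162) or 3 (adjusted p = 0.3), replicate 3 of 0.16 µM (adjusted p = 0.0652) or replicate 1 of 1.26 µM (adjusted p = 0.0659). GSC lost its call without control replicate 1 or 2, replicate 2 or 3 of 0.16 µM, or replicate 1 or 2 of 1.26 µM, with adjusted p of 0.0753 to 0.422. In edgeR's test, neither BACE2 (adjusted p = 0.597) nor GSC (adjusted p = 0.475) was called. BACE2 was also lost with a pseudocount of 0.25 (adjusted p = 0.307), in the fit of only the 9 libraries (adjusted p = 0.224) and without day 18 (adjusted p = 0.0618). GSC was lost in the same 3 alternatives (adjusted p = 0.321, 0.192 and 0.0839) and with the GC content and length correction (adjusted p = 0.0666).

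Non-overlap between the controls and the 6 low-dose libraries was common at small differences, at 388 genes higher (2.54%) and 292 lower (1.91%). All 11 genes lower in the combined test were among the latter, and CDKN1A was not among the former. A further 10 genes had an adjusted p between 0.05 and 0.1, of which 7 were lower and 3 higher. Among those lower were SLC5A7, the choline transporter of cholinergic neurons (1.36, 0.303 and 0.60 CPM at 0, 0.16 and 1.26 µM, adjusted p = 0.0523), and NRP1, a receptor for semaphorins and VEGF (2.71, 1.36 and 1.19 CPM, adjusted p = 0.0957). SLC5A7 was called lower with a pseudocount of 0.25 (adjusted p = 0.0441), after median-ratio rescaling (adjusted p = 0.0313) and in edgeR (adjusted p = 0.0372). The others lower were COLEC12, MBP, MGP, WWTR1 and VCAN, named here after their values were seen. VCAN was called lower after that rescaling (adjusted p = 0.0223) and in edgeR (adjusted p = 0.0247). The GC content and length correction also called VCAN (adjusted p = 0.000272). COLEC12 was called lower after the rescaling (adjusted p = 0.032) and with the correction (adjusted p = 0.0354). GDF15 was among those higher.

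CDKN1A (chromosome 6, 36676463 to 36687332) encodes p21, the inhibitor of cyclin-dependent kinases that p53 induces. It stood at 293.6, 259.7 and 251.5 CPM in the controls, at 292.4, 286.8 and 302.3 CPM with 0.16 µM and at 411.2, 380.2 and 416.9 CPM with 1.26 µM. The libraries at 0.16 µM overlapped with the controls, and those at 1.26 µM were above all others. The combined difference was 0.36 ± 0.069 (adjusted p = 0.0109), made up of 0.13 ± 0.080 at 0.16 µM (adjusted p = 1) and 0.59 ± 0.080 at 1.26 µM (adjusted p = 4.08e-05). The combined call was lost in edgeR (adjusted p = 0.0659) and without control replicate 2 or 3 (adjusted p = 0.144 and 0.268), whereas the call at 1.26 µM was kept in all 8 alternative analyses and without any 1 of the 9 libraries. At 10 µM the mean was 447.4 ± 9.36 CPM.

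GDF15 (chromosome 19, 18386158 to 18389176) encodes a TGF-beta-like secreted protein that rises in stressed cells. It stood at 1229, 1192 and 1144 CPM in the controls, at 1363, 1327 and 1437 CPM with 0.16 µM and at 1845, 1663 and 1877 CPM with 1.26 µM. The 3 groups were ordered by dose and did not overlap. The combined difference of 0.40 ± 0.091 did not pass (adjusted p = 0.0632), and it did in 3 of the 8 alternative analyses (adjusted p = 0.00836 to 0.0448 in those). At 1.26 µM alone the difference was 0.59 ± 0.11 (adjusted p = 0.00315), which was lost without replicate 3 of 1.26 µM (adjusted p = 0.0511), and at 0.16 µM it was 0.21 ± 0.11 (adjusted p = 1).

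The 250 bases before an annotated transcript start are shown for 2 genes that fell and for these p53 targets, because both sets have promoters in the RefSeq table of GRCh38.p14 and moved in opposite directions. Capitals mark matches to the E-box CANNTG, the sequence that basic helix-loop-helix factors such as TWIST2 bind. The window of CDKN1A precedes a transcript that starts inside the gene as bounded above, whereas the other 3 windows end at the base before the gene.
TWIST2 (chr2:238847835-238848084, plus strand): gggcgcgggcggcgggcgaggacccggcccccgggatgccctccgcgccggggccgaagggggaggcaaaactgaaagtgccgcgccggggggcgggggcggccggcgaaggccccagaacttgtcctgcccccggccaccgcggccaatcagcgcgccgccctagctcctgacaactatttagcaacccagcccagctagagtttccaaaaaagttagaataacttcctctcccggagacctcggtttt
VIM (chr10:17227991-17228240, plus strand): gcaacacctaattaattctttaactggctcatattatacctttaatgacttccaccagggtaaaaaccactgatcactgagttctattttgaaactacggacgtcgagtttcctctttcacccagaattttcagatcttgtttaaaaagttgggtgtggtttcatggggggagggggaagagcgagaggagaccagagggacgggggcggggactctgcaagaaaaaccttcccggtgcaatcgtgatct
CDKN1A (chr6:36678464-36678713, plus strand): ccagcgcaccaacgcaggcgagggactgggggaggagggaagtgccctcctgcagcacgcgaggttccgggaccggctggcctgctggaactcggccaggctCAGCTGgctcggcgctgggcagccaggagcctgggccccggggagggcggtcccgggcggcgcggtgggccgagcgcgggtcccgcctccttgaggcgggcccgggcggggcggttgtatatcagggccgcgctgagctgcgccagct
GDF15 (chr19:18385908-18386157, plus strand): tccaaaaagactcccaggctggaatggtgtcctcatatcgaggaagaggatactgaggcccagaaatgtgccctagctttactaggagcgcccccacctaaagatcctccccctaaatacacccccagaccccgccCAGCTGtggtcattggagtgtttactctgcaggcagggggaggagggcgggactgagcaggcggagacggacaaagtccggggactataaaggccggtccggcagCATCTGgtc
The windows before TWIST2 and VIM held no match, the window before CDKN1A held 1 and that before GDF15 held 2. This split by direction did not hold for all other genes with windows. Of the genes lower with Pb, GSC had 2 matches, and TSC22D1 had windows with 1 or 2 matches and windows with none. IGFBP5 and S100A11, also lower, had no match. EDA2R, a p53 target called higher at the higher dose, had 1 window with a match and 1 without. The windows of 1 chromosome and those with undetermined bases were left out of the search. Of the 35114 windows of this length that were kept, 61.8% held at least 1 match on either strand, where the motif reads alike on both. Of the 12 genes called, 7 had windows in the table, 11 windows in all because TSC22D1 has 5. A match was present in 5 of the 11, which belong to CDKN1A, GSC and TSC22D1. The TATAAA box was present in 10.7% of the windows kept and the CCAAT box in 32.0%, each searched on both strands, and each was found in 3 of the 11. A CCAAT box lay 105 bases before the start of TWIST2 and 103 before that of GDF15, which also had TATAAA 29 bases before its start.

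The p53 targets had a higher median than all genes at both doses, with the larger value at 1.26 µM. All 20 were tested, CDKN1A was the only one called in the combined test, and 9 were higher and 0 lower at an unadjusted p below 0.05, where 3.11% of all genes were higher. The median was 0.10 at 0.16 µM and 0.28 at 1.26 µM, where the median of all genes was 0.01 at either dose. At 0.16 µM none was called, with 0.0197% of all genes called, and at 1.26 µM CDKN1A, GDF15 and EDA2R were, with 0.0197% of all genes called higher. Without CDKN1A the combined median of the other 19 was 0.18. The list was chosen with earlier results of these data known, so its counts and medians beside all genes are a description and not an independent test. The list's summed level was 2131 to 2244 CPM in the controls, 2381 to 2504 CPM with 0.16 µM and 2930 to 3170 CPM with 1.26 µM, a sum in which GDF15 has the largest part.

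EDA2R, a death receptor of the TNF family, was at 8.85, 7.74 and 11.2 CPM in the controls, at 10.7, 11.7 and 9.34 CPM with 0.16 µM and at 15.7, 14.4 and 12.2 CPM with 1.26 µM. Only the libraries at 1.26 µM were above all controls, and the difference there was 0.56 ± 0.12 (adjusted p = 0.0486). This call was lost in the fit of only the 9 libraries (adjusted p = 0.312), without day 18 (adjusted p = 0.0515), and without control replicate 1 or 2, replicate 1 or 2 of 0.16 µM, or replicate 1 or 2 of 1.26 µM (adjusted p = 0.0519 to 0.381). FDXR, a mitochondrial flavoprotein that passes electrons to ferredoxin, averaged 48.4, 53.5 and 64.7 CPM at the 3 doses (0.41 ± 0.089 at 1.26 µM, adjusted p = 0.0552). MDM2, the ubiquitin ligase that limits p53, averaged 41.3, 47.4 and 47.3 CPM, with a combined difference of 0.19 ± 0.11 (adjusted p = 0.947). It is named here after its values were seen.

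**Figure D3:**
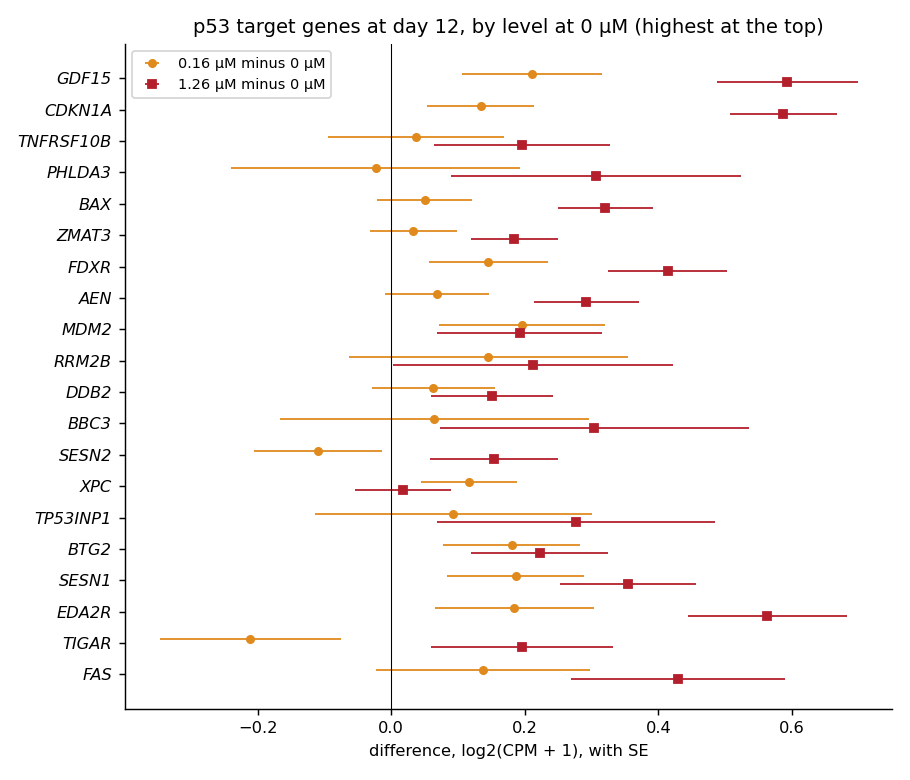
Difference from 0 µM on the log2(CPM + 1) scale with its SE (horizontal) for the 20 p53 targets (vertical, by level at 0 µM), with 0.16 µM as circles and 1.26 µM as squares. The medians are 0.10 and 0.28, and CDKN1A and GDF15 reach 0.59 at 1.26 µM.

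The 2 doses were compared directly with each other, a test that uses no control library. Of all genes, 2 were called (0.0131%), both higher at 1.26 µM, and 493 had an unadjusted p below 0.05 (3.23%). CDKN1A differed by 0.45 ± 0.080 (adjusted p = 0.00968). H3Y1, a primate histone H3 variant gene, differed by 0.92 ± 0.17 (adjusted p = 0.00968), with 3, 0 and 5 reads at 0.16 µM, 35, 45 and 24 reads at 1.26 µM and 6, 8 and 13 reads in the controls. The libraries of H3Y1 at 0.16 µM were thus the lowest and those at 1.26 µM the highest, and its reads are uncertain because H3Y2 is a near-identical copy. Both calls were lost in the fit of only the 9 libraries (adjusted p = 0.0985 each) and without replicate 1 or 2 of 0.16 µM or replicate 1 or 3 of 1.26 µM (adjusted p = 0.0502 to 0.204). The call of H3Y1 was also lost without replicate 2 of 1.26 µM (adjusted p = 0.278).

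Among the 20 p53 targets, 18 were higher at 1.26 than at 0.16 µM, where 51.5% of all genes were lower, and 9 had an unadjusted p below 0.05 in that direction, where 2% of all genes did. The median of the list between the doses was 0.23, with -0.004 for all genes. As the list was chosen with earlier results known, these values describe it and do not test it. BAX, which opens the outer mitochondrial membrane in cell death, averaged 82.4 CPM at 0.16 µM and 99.6 CPM at 1.26 µM, and AEN, a nuclease induced by p53, averaged 48.4 and 56.7 CPM. Both are named here after their values were seen.

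None of the 11 genes that were lower with Pb differed between the doses at an adjusted p of 0.05. Their differences ran from -0.23 in COL3A1 to 0.28 in GSC, with a median of -0.04 and 7 of 11 below 0. The 95% interval for the difference between 1.26 and 0.16 µM was -0.68 to 0.23 in COL3A1 and -0.48 to 0.30 in TWIST2. Differences between the doses inside these intervals are not excluded by these data.

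Taken singly, 0.16 µM gave 3 called genes, all lower (0.0197%), which were COL3A1, TSC22D1 and TWIST2. At 1.26 µM there were 7 (0.0459%), with COL3A1, TWIST2, VIM and FAP lower (0.0262%) and CDKN1A, GDF15 and EDA2R higher (0.0197%). The doses share their controls, so these lists are not independent of each other. The count at 0.16 µM was 1 without control replicate 2 or without replicate 1 of 0.16 µM and 16 after median-ratio rescaling, and the count at 1.26 µM was 11 without its replicate 2. FAP at 1.26 µM lost its call without any 1 of 7 of the 9 libraries (adjusted p = 0.0531 to 0.355) and in 4 of the 8 alternative analyses (adjusted p = 0.0632 to 0.615).

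Groups at other days used separate dishes and separate controls. At day 15, all 11 genes lower at day 12 had differences below 0, where 44.4% of all genes did, and 4 were called lower, where 0.334% of all genes were. COL3A1 fell by 1.67 (adjusted p = 6.48e-07), GSC by 0.81 (adjusted p = 0.0111), TWIST2 by 0.69 (adjusted p = 0.042) and TSC22D1 by 0.24 (adjusted p = 0.00091). CDKN1A (0.33, adjusted p = 0.0115) and GDF15 (0.45, adjusted p = 0.0101) were called higher at day 15, where 0.124% of all genes were. The median of the 11 genes was -0.20 at day 15, with 0.01 for all genes.

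At day 6, a single day after Pb was first added, none of the 11 genes was called (0% of all genes) and their median was -0.04. At day 9 none was called either, with 0.0328% of all genes called lower, 8 of 11 were below 0 and the median was -0.22. COL3A1 at day 9 averaged 41.3 CPM without Pb, 37.6 CPM with 0.16 µM and 17.0 CPM with 1.26 µM. At day 18, whose libraries have another name prefix in the labels than those of the other days, 4.08% of all genes were called lower and 11.4% higher. Of the 11 genes, GSC and TSC22D1 were lower at day 18 and IGFBP5 was higher (0.40, adjusted p = 0.0176), the opposite of its direction at day 12.

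The levels without Pb give the scale of these differences. TWIST2 averaged 0.169, 0.919, 10.7, 1.81 and 0.933 CPM at days 6, 9, 12, 15 and 18, so day 12 was its peak. With 0.16 µM it averaged 0.422, 0.774, 4.44, 0.684 and 0.486 CPM, and with 1.26 µM 0.486, 0.448, 4.13, 0.813 and 0.701 CPM. COL3A1 without Pb averaged 25.1, 41.3, 46.2, 11.3 and 4.17 CPM. With 0.16 µM it averaged 22.8, 37.6, 17.5, 3.14 and 3.27 CPM, and with 1.26 µM 21.1, 17.0, 14.7, 2.63 and 3.62 CPM. VIM without Pb averaged 50.4, 64.2, 122, 103 and 174 CPM on the same days. With 1.26 µM its mean was below that of the controls on all 5 days, and with 0.16 µM on every day but day 9 (64.6 against 64.2 CPM). The combined call of VIM was made only at day 12.

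**Figure D4:**
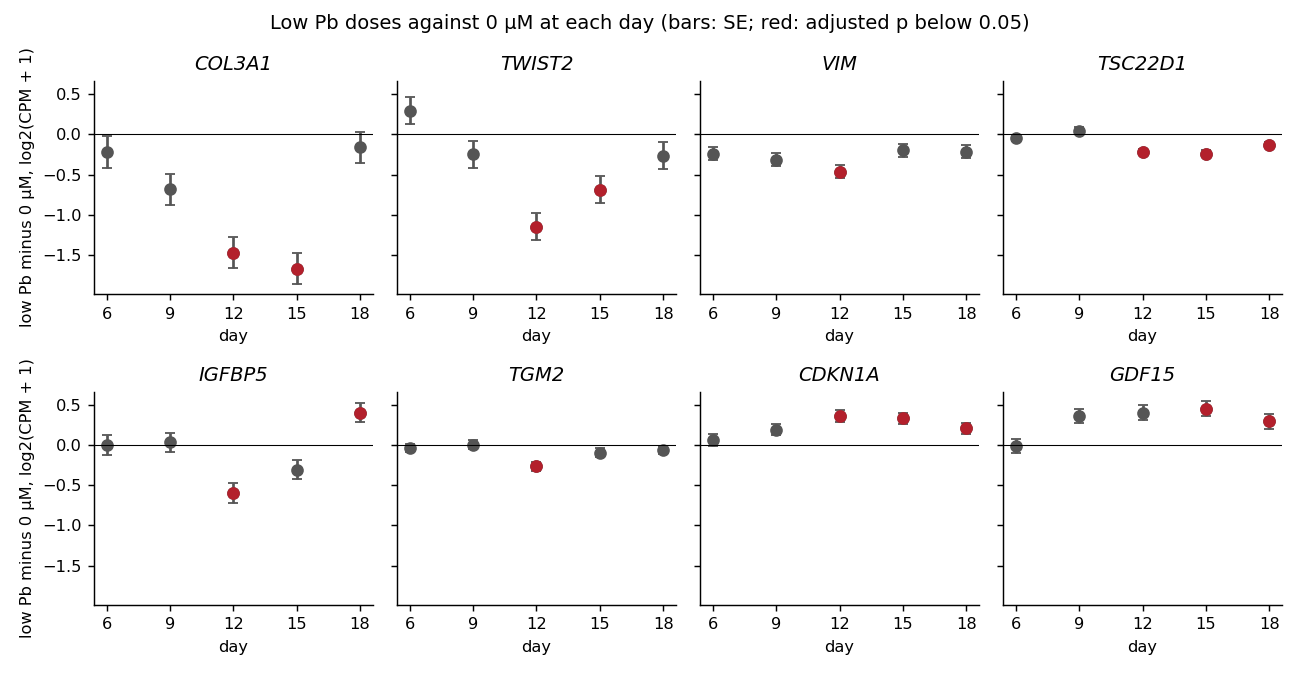
Difference between the pooled low Pb doses and 0 µM on the log2(CPM + 1) scale with its SE (vertical) at days 6, 9, 12, 15 and 18 (horizontal) for 8 genes, with values past an adjusted p of 0.05 in red. COL3A1 is lowest at day 15 (-1.67) and day 12 (-1.47), TWIST2 is lowest at day 12, and IGFBP5 is below 0 at day 12 and above 0 at day 18.

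Whether the difference at day 12 departed from its mean at days 6, 9 and 15 was tested for every gene. No gene was called by limma (0%), with 636 at an unadjusted p below 0.05 (4.17%), and edgeR called 0 with 604 at an unadjusted p below 0.05. Without control replicate 2, 1 gene was called, LOC105376121 (adjusted p = 0.0037), and in the fit of only the 36 libraries compared there were 2, GBP2 among them (adjusted p = 0.0138). TWIST2 departed by -0.93 (adjusted p = 0.12), GBP2, an interferon-induced GTPase, by -0.62 (adjusted p = 0.12), MBOAT1, a lysophospholipid acyltransferase, by -0.48 (adjusted p = 0.228) and IFITM2 by -0.75 (adjusted p = 0.551). In the other direction LOC105376121 had 0.65 (adjusted p = 0.0861), the centrosomal protein CEP72 0.53 (adjusted p = 0.252), NKAPD1 0.28 (adjusted p = 0.37) and the zinc finger gene ZNF76 0.35 (adjusted p = 0.741). None of the 11 genes can thus be called particular to day 12.

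Lists of other responses known for Pb or for stress had no called member in the combined test, and their medians lay between -0.07 and 0.09, with 0.01 for all genes. Among 23 tested targets of NRF2, the factor of the antioxidant response, 0 reached an unadjusted p below 0.05 and the median was 0.04. NQO1, a quinone reductase, averaged 104.1, 110.1 and 123.1 CPM at 0, 0.16 and 1.26 µM (0.16 ± 0.094, adjusted p = 0.958). Among 9 metallothioneins and zinc transporters and 8 enzymes of haem synthesis, a pathway that Pb is known to inhibit, 0 had an unadjusted p below 0.05. Their medians were 0.05 and 0.09, and 7 of the 8 haem enzymes were above 0. ALAD, the haem enzyme that Pb is best known to inhibit, averaged 14.6, 15.0 and 16.2 CPM (0.11 ± 0.094, adjusted p = 0.999), and is named here after its values were seen. Of 30 cell cycle and replication genes 19 were below 0, where 43.9% of all genes were. Of the 30, 2 were lower at an unadjusted p below 0.05 (2.54% of all genes), and the median was -0.07. RRM2, a subunit of ribonucleotide reductase, averaged 134.5, 125.7 and 119.4 CPM (-0.13 ± 0.054, adjusted p = 0.682).

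In 2 further lists all members lay on the same side of 0, by small amounts and with no member called. All 32 cytosolic ribosomal protein genes were below 0, where 43.9% of all genes tested were. Of the 32, 16 were lower at an unadjusted p below 0.05 (2.54% of all genes), and the median was -0.14. RPS6 averaged 1259, 1161 and 1091 CPM at 0, 0.16 and 1.26 µM (-0.16 ± 0.058, adjusted p = 0.583). All 20 genes of the unfolded protein response were above 0, with 5 higher at an unadjusted p below 0.05 (3.11% of all genes) and a median of 0.07. DNAJB9, a co-chaperone of the endoplasmic reticulum, averaged 143.5, 162.4 and 165.2 CPM (0.19 ± 0.062, adjusted p = 0.476), and HERPUD1, which serves the degradation of misfolded proteins, 153.6, 168.2 and 174.3 CPM (0.16 ± 0.058, adjusted p = 0.628). After median-ratio rescaling both medians kept their sign, at -0.15 for the ribosomal list with 12 members at an unadjusted p below 0.05, and at 0.06 for the unfolded protein response with 2. At 10 µM, against the same controls, the median was 0.03 for the ribosomal list and 0.02 for the unfolded protein response, with 0.01 for all genes.

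Neuronal lists differed little. Among all genes tested, 43.9% were below 0, and 3.11% were higher and 2.54% lower at an unadjusted p below 0.05. Of 22 synaptic vesicle genes 19 were above 0 and 3 were higher at an unadjusted p below 0.05, with a median of 0.08. SYP, the vesicle membrane protein synaptophysin, averaged 119.1, 137.8 and 131.8 CPM (0.18 ± 0.057, adjusted p = 0.472) without overlap, and RAB3A, a GTPase of vesicle release, 65.4, 71.8 and 77.3 CPM (0.19 ± 0.067, adjusted p = 0.575). Among 19 genes of the neuronal cytoskeleton, 2 were lower at an unadjusted p below 0.05. STMN4, a tubulin-binding stathmin, averaged 127.2, 113.6 and 110.1 CPM (-0.19 ± 0.055, adjusted p = 0.292) and GAP43, a growth cone protein, 389.6, 357.4 and 363.9 CPM (-0.11 ± 0.042, adjusted p = 0.635). The noradrenergic list of 18 genes had 1 member at an unadjusted p below 0.05, SLC18A1, a vesicular monoamine transporter, and a median of 0.01 that changed sign after rescaling (-0.000331). In the 25 axon guidance genes, of which 22 were tested, 3 were lower at an unadjusted p below 0.05, among them NRP1 and SEMA3A, a repulsive guidance cue (11.9, 9.30 and 9.54 CPM, -0.31 ± 0.13, adjusted p = 0.705).

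**Figure D5:**
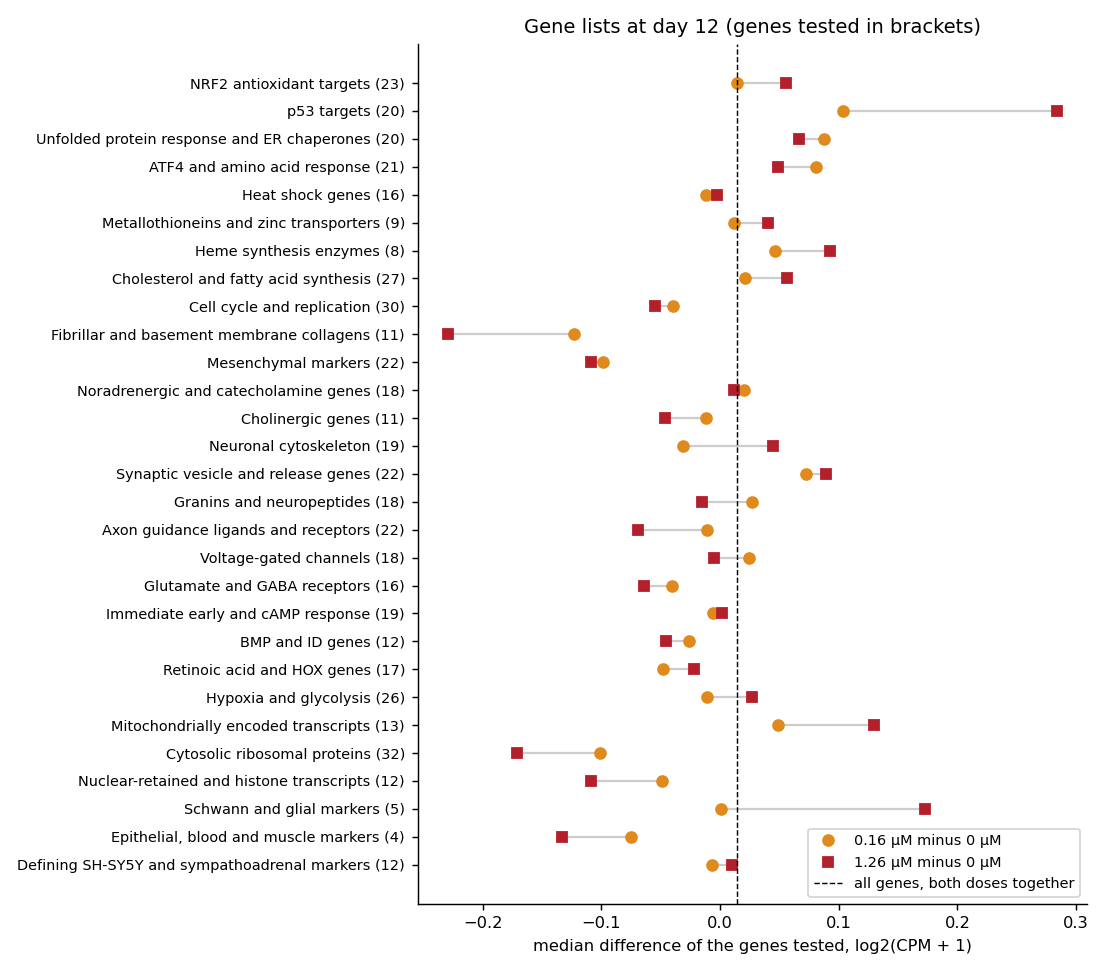
Median difference from 0 µM on the log2(CPM + 1) scale (horizontal) of the genes tested in each of 29 lists (vertical), at 0.16 µM (circles) and 1.26 µM (squares), with the median of all genes as a dashed line at 0.01. The p53 targets lie furthest to the right at both doses, with 0.10 and 0.28, and the collagens furthest to the left, with -0.12 and -0.23.

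No marker in the lists of other lineages was called. Of 10 Schwann and glial markers 5 were tested and none called, FOXD3 had no read in any of the 9 libraries, and the summed level was 72.5 to 84.5 CPM at 0 µM, 78.1 to 80.3 CPM at 0.16 µM and 75.0 to 84.4 CPM at 1.26 µM. ERBB3, a neuregulin receptor of Schwann cells, averaged 4.07, 5.31 and 5.07 CPM (0.29 ± 0.13, adjusted p = 0.742). Of 14 epithelial, blood and muscle markers 4 were tested and none called, and KRT1, PTPRC, HBA1 and HBB had no read. Their summed level was 32.4 to 44.7 CPM, 30.3 to 40.4 CPM and 31.9 to 41.1 CPM at 0, 0.16 and 1.26 µM, most of it KRT10.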

How the data were processed

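RNA of 60 libraries was measured, and the 9 of day 12 at 0, 0.16 and 1.26 µM are reported. The authors deposited CPM for 37334 genes. Per the submitters' processing notes, STAR and featureCounts were used with GRCh38, and FastQC and MultiQC for quality control. The annotation and strand setting are not given in the sources used here, so reads of overlapping antisense genes cannot be told apart. All values were whole multiples of 1 read within 0.01 read (100%), which gave the read numbers and depths. Depths count reads and not molecules, as no molecular identifiers were used. They bear on counting error only.

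The filter kept the 15263 genes that reached 1 CPM in 3 or more of the 60 libraries. Values were analysed as log2(CPM + 1) with limma 3.58.1 in R 4.3.3, with 1 mean for each of 20 groups, an intensity trend and 40 residual degrees of freedom. The low doses entered with equal weight. Tests were two-sided, with Benjamini-Hochberg adjustment over all genes kept. Errors are standard errors of the model or, beside CPM, standard deviations. The model was tested on simulated data.

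The genes named were those past the threshold with no overlap and a mean of 5 CPM or more in a group (up to 12 in each direction), up to 4 in each direction for each dose, for the doses against each other and for the day difference, and up to 4 members of each of 29 lists. Members and lists were chosen with earlier results of these data known, so list counts and medians set beside all genes are descriptive. Replicate numbers were not taken to pair dishes. Alternatives were a pseudocount of 0.25, no filter, median-ratio rescaling, a fit restricted to the groups compared, a replicate block, edgeR 4.0.16 on the recovered reads, leaving out day 18 or each library, and a GC content and length correction with splines of 4 degrees of freedom, chosen after seeing the data. Gene positions are those of RefSeq, which held 36621 of the 37334 symbols.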

Additional observations from a re-analysis of the deposited data

Results flagged for a closer look

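The 2 doses differed from each other, by a test of the difference itself, in 2 genes. CDKN1A was higher at 1.26 than at 0.16 µM by 0.453 on the log2 scale, in all 3 libraries against all 3. H3Y1 was higher by 0.923 in the same comparison, also without overlap, on 24 to 45 reads against 0 to 5. Of 33 values that were checked for 1 of the 6 low-dose libraries standing far from the rest, 0 showed one. The check took both doses together, so where the doses differ, as in these 2 genes, a deviant library is hard to flag.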

How the results depend on the processing

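No called gene changed direction under any alternative. Differences near 0 that passed no test could do so, such as those of SESN2 (-0.05 to 0.06) and TIGAR (-0.05 to 0.03) when single libraries were left out, and the medians of the noradrenergic and immediate early lists after rescaling. The GC content and length correction kept 3 of the 12 nuclear-retained and histone transcripts, too few to check their median. Without the filter on low values, the number of called genes was 27 for both doses together, 7 for 0.16 µM, 19 for 1.26 µM, 6 between the doses and 1 for the day difference. For 0.16 µM, where 3 were called, the number was 16 after median-ratio rescaling (all 3 among them), 5 with the replicate block, 7 in edgeR, 5 without day 18 and 8 with the GC content and length correction. That correction gave 12 for 1.26 µM and 1 between the doses. In the fit of only the groups compared, 0 genes differed between the doses and 2 between days. Leaving out each library gave 4 to 12 for both doses together, 1 to 4 for 0.16 µM, 5 to 11 for 1.26 µM, 0 to 2 between the doses and 0 to 1 for the day difference. The cause of these shifts was not tested. For both doses together, edgeR called 10 genes, all lower, 7 of them among the 12. Same-numbered dishes of 2 groups correlated at -0.17 to 0.43, with 4 of 9 pairs over 0.1. Those 4 were all 3 pairs of replicate 2 (0.32 to 0.432) and 1 pair of replicate 1 (0.394), so the numbers were not taken to pair the dishes throughout. The replicate block brought GDF15 past the threshold (adjusted p = 0.0632 without and 0.0448 with it) and gave 13 genes for both doses together. The median SE was largest for genes below 5 CPM, at 0.158 below 1 CPM and 0.156 at 1 to 5 CPM, and was 0.0575 at 100 CPM or more. The part of depth in this was not tested.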

Other observations

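Lists not described so far had no called member in the combined test, although SLC5A7 of the cholinergic list was called in the 3 alternatives named above. The counts below stand beside 43.9% of all genes below 0, and 3.11% higher and 2.54% lower at an unadjusted p below 0.05. Of 27 genes of cholesterol and fatty acid synthesis 19 were above 0, 3 were higher at an unadjusted p below 0.05 and the median was 0.05. IDI1, an isomerase of the pathway, averaged 233.7, 254.6 and 260.3 CPM at 0, 0.16 and 1.26 µM, and HMGCS1, which makes HMG-CoA, 315.1, 346.3 and 369.4 CPM, both without overlap between controls and low doses. Of 13 transcripts of the mitochondrial genome 11 were above 0 with a median of 0.09, and ND4, a subunit of complex I, averaged 2113, 2301 and 2341 CPM.

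Of 21 genes of the ATF4 response 1 was higher at an unadjusted p below 0.05, TRIB3, and of 16 heat shock genes 1 was lower, HSPB1, with medians of 0.05 and -0.004. Medians were -0.03 in 11 cholinergic genes (2 lower at an unadjusted p below 0.05), 0.01 in 18 granins and neuropeptides (1 lower), -0.02 in 18 voltage-gated channels (1 lower), -0.07 in 16 glutamate and GABA receptors (2 lower) and -0.09 in 12 BMP and ID genes (0). They were 0.005 in 19 immediate early genes (1 higher, 1 lower), which became -0.009 after rescaling, -0.008 in 26 hypoxia and glycolysis genes (1 higher, 1 lower) and -0.07 in 12 nuclear-retained and histone transcripts (2 lower).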
